A study of Rattus norvegicus with 2 samples.

Results

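The genes described here encode the core of the basement membrane, the thin sheet of matrix on which epithelial and endothelial cells rest. The set holds 10 of the 14217 genes on the array: the collagen IV chain genes Col4a1 and Col4a2, the laminin chain genes Lama4, Lama5, Lamb1, Lamb2 and Lamc1, the nidogen genes Nid1 and Nid2, and the perlecan gene Hspg2. They were chosen by gene family, with the signals of these same arrays already known, so their differences are descriptions and carry no test. The cells came from the established rat prostate cancer line AT6.1. RNA from 1 clone (number 7), carrying Ndrg-1 (N-myc downstream regulated gene-1) in the plasmid pcDNA3, was compared with RNA from 1 clone (number 9) transfected with pcDNA3 alone. Both clones grew in RPMI medium with 10% FCS and 0.3 mg/mL of the selection drug G418. With 1 array for each clone there was no replicate, so insert, clone, culture and array cannot be told apart as sources of a difference. The series was made to find genes that differ between high Ndrg-1 cells and their control.

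Collagen IV forms the covalently linked network of the basement membrane. Its most widespread form is a trimer built from the chains that Col4a1 and Col4a2 encode, and both chains are needed for it to be secreted. Laminins are trimers of an alpha, a beta and a gamma chain that assemble into a second network at the cell surface. Nidogens and perlecan, a heparan sulphate proteoglycan, bridge the networks. In carcinoma, tumour cells meet this sheet when they invade, and they also make many of its components.

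Col4a1 and Col4a2 lie head to head on the same chromosome and are read outward from a short stretch between their starts. That stretch is shown because these were the members with the largest differences. In the RefSeq promoter table for GRCr8 it holds 76 bases and lies outside both genes, at chr16:84885521-84885596, here on the plus strand, from the side of Col4a2 (transcribed from the minus strand) to the side of Col4a1 (plus strand). Capitals mark a GC box (GGGCGG, here on the minus strand).

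Col4a2-Col4a1 intergenic stretch: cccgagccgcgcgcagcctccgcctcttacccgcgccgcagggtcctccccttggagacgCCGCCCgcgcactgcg

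G and C made up 78.9% of these bases, against a median of 53.9% over stretches of the same length just before the starts of all 33469 promoter windows in the table. On both strands, the stretch held 1 match to GGGCGG and 0 matches to CCAAT or to TATAAA. Of all stretches of that length, 18.1% held GGGCGG, 13.0% held CCAAT and 4.61% held TATAAA. A match in letters is a description and not a binding site.

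The signals are probe set intensities on a linear scale, as deposited by the authors. For ratios, signals of the vector clone were rescaled to bring the median log2 ratio of the brighter probe sets to 0, and signals under a floor of 31.0 (the median of all signals) were set to that floor. A gene counts as measured when at least 1 array was above the floor, which left 9182 genes, and as different when it reached 2-fold. The only error the table can give is how far probe sets of the same gene disagree, with an SD of 0.23 on the log2 ratio. It was 0.30 in the dimmest tercile of probe sets (mean signal 31.3 to 125), 0.21 in the middle tercile and 0.13 in the brightest tercile (above 357). It leaves out the variation between clones, cultures and arrays. The Ndrg1 probe sets were not 2-fold different: the brighter read 1353 in the Ndrg-1 clone and 1062 in the vector clone, and the dimmer 154 and 181. Whether these probe sets can read the insert was not tested. For the RNA quality control Actb, the 3' to 5' signal ratio was 1.21 and 1.24 in these clones.

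Of the 10 genes, 9 were measured and Lama4 was not. The members had 16 probe sets, of which 10 were above the floor in both arrays, 1 in the vector clone alone and 5 in neither. In the Ndrg-1 clone 2 members, Col4a1 and Col4a2, stood at least 2-fold higher, and 0 stood at least 2-fold lower. Over all measured genes those shares were 1.62% (higher) and 1.50% (lower). Of the 9 members, 6 had a log2 ratio below 0, which held for 49.6% of all measured genes. Their median log2 ratio was -0.41, against 0.0029 for all measured genes. With the arrays scaled to the hybridisation spikes (control transcripts added before hybridisation) the members' median turned to 0.06, with 5 of the 9 above 0 and 4 below, while the median of all measured genes moved to 0.53. In RNA from whole cultures, fewer cells that express a gene and less RNA per cell cannot be told apart.

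**Figure D1:**
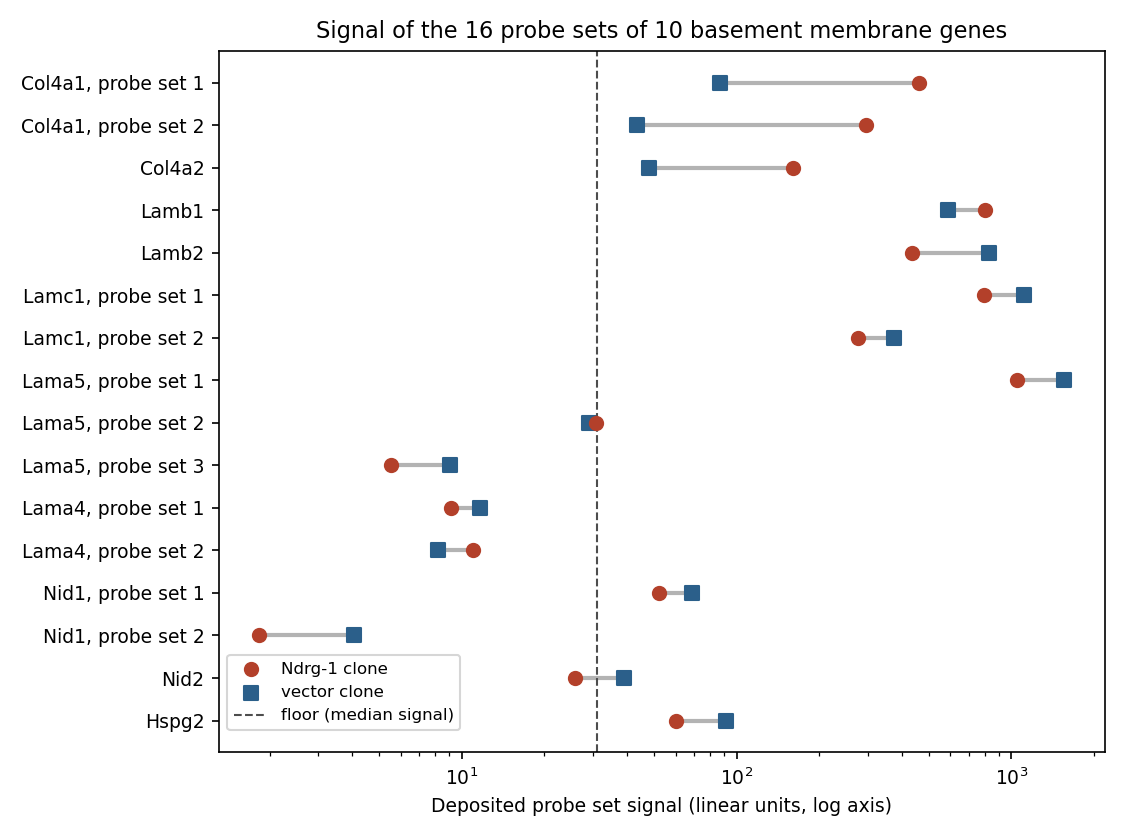
Deposited signal of each of the 16 probe sets (log axis, linear signal units) in the Ndrg-1 clone (circles) and the vector clone (squares), 1 array each, numbered from the brightest for genes with several; the dashed line is the floor of 31.0. The probe sets of Col4a1, Col4a2 and Lamb1 lie to the right in the Ndrg-1 clone, and those of Lamb2, Lamc1, Nid2 and Hspg2 to the left.

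Both collagen IV genes stood higher in the Ndrg-1 clone, by more than any other member. The brighter Col4a1 probe set read 463 in the Ndrg-1 clone and 86.9 in the vector clone. The second Col4a1 probe set read 296 and 43.6. These are 5.31-fold and 6.77-fold higher signals (log2 ratios 2.41 and 2.76), and the gap of 0.35 between the probe sets was close to 0.33, the SD of a difference between probe sets of a gene. Both probe sets differed in the same direction and lay above the floor in each clone.

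Col4a2, with a single probe set, read 161 in the Ndrg-1 clone and 48.2 in the vector clone, which is 3.32-fold higher (log2 ratio 1.73). It was brighter than 56.6% of probe sets in the vector clone and 73.9% in the Ndrg-1 clone. For Col4a1, on its brighter probe set, those shares were 64.9% and 88.5%. A rank of this kind sets unlike probe sets side by side and is no measure of transcript abundance. The log2 ratio of Col4a1 exceeded that of Col4a2 by 0.68, and 2 SD of a difference were 0.65 over all probe sets together. Col4a2 lay in the dimmest tercile, where the SD of the disagreement was 0.30, and Col4a1 in the middle one (0.21). Over all probe sets that SD was 0.23, so a gap this near the limit does not set these genes apart.

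Col4a1 had the 8th highest and Col4a2 the 39th highest log2 ratio of the 9182 measured genes. Among the 8552 genes above the floor in both arrays they were 3rd and 21st. The genes nearest to Col4a1 in that order, over 2 arrays, were Mgll and Srgn above it (log2 ratios 3.37 and 3.03) and Ogfrl1 and Tom1l1 below it (2.24 and 2.24). Nearest to Col4a2 were Zfand2a and Vldlr above it (1.84 and 1.75) and Prl6a1 and Bbs4 below it (1.72 and 1.71).

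**Figure D2:**
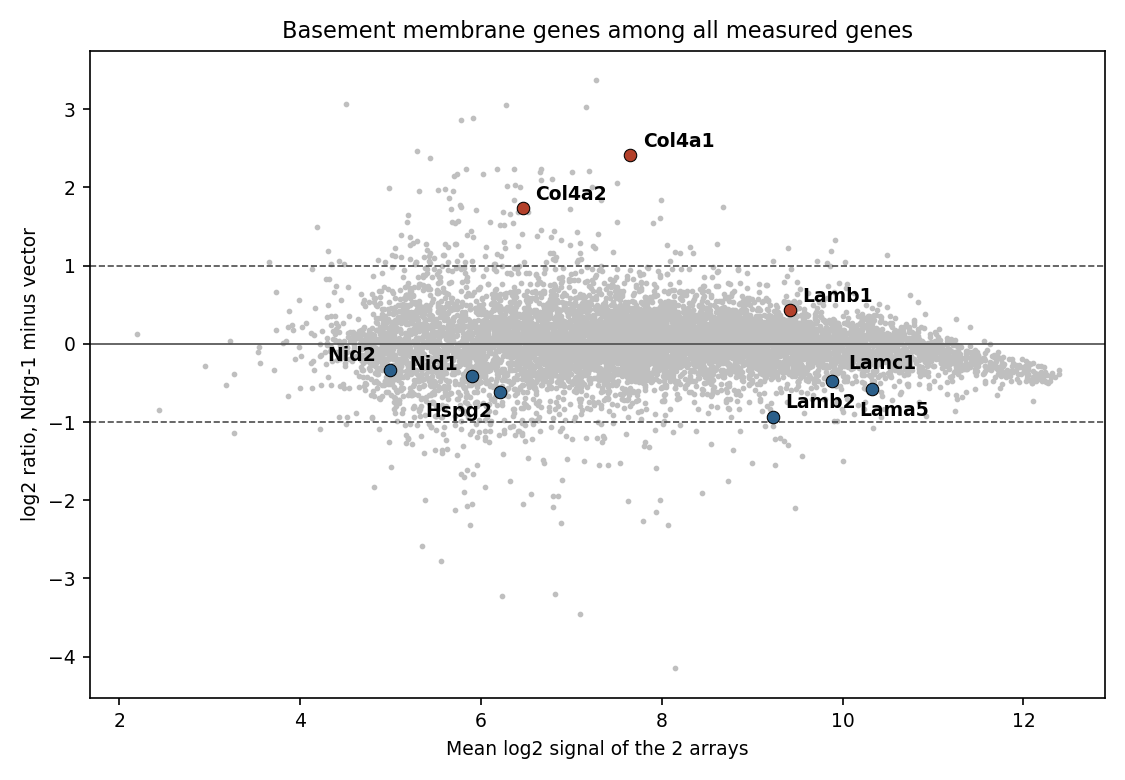
Each grey point is 1 of the 9182 measured genes, with the mean log2 signal of the 2 arrays before the floor on the x axis and the log2 ratio (Ndrg-1 minus vector, after the floor) on the y axis; named points are the 9 measured basement membrane genes and dashed lines mark 2-fold. Col4a1 and Col4a2 lie above the upper line, Lamb1 between 0 and 1, and the other 6 between 0 and -1.

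The measured genes on either side of the pair did not reach 2-fold, like most measured genes (1.62% were 2-fold higher and 1.50% lower). The 5 measured genes on either side, picked by position and named after their values were seen, ran from -0.39 (Ing1) to 0.60 (Lig4), with 0 of these 10 past 2-fold. Directly beside Col4a2, the small GTPase gene Rab20 read 114 in the Ndrg-1 clone and 96.9 in the vector clone (log2 ratio 0.23). Directly beside Col4a1, Irs2, an adaptor of insulin receptor signalling, read 184 and 123 (log2 ratio 0.57). All 5 genes beyond Col4a1 except Arglu1 (-0.13) were above 0, where 49.6% of all measured genes were below 0.

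Other head-to-head genes were compared in the same way. Of 389 pairs in the RefSeq table with starts at most 1000 bases apart and both genes above the floor in both arrays, 1 pair had both genes at least 2-fold different in the same direction, or 0.257%, and that was Col4a1 with Col4a2. In 1 other pair 1 gene reached 2-fold: Rnf113a1 was at 1.23 while its partner Ndufa1 was at -0.32. The pairing was examined after the collagen IV values were known.

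**Figure D3:**
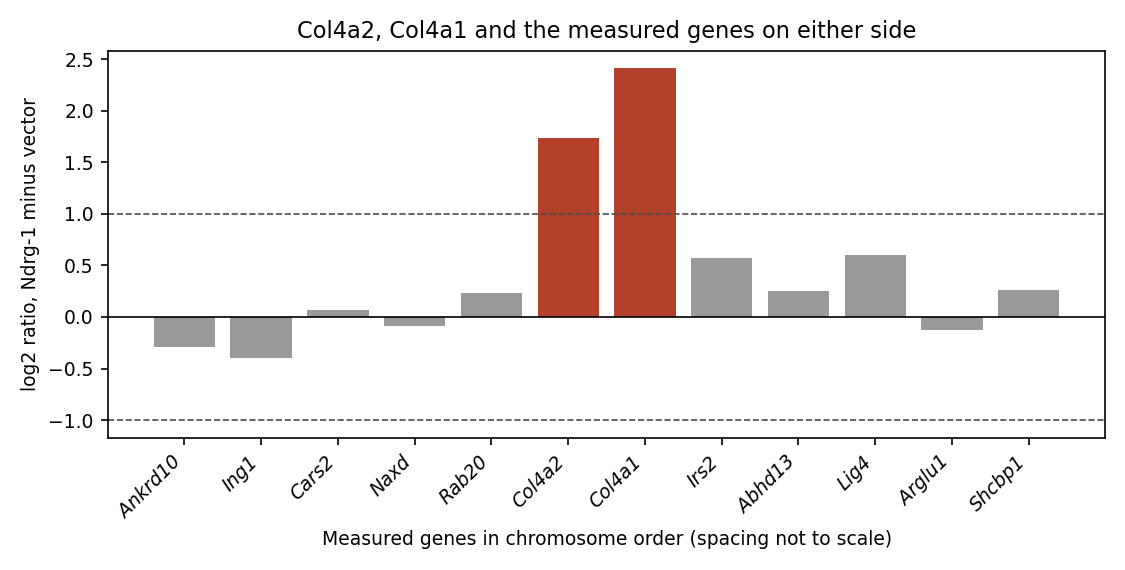
Bars give the log2 ratio (Ndrg-1 minus vector) of Col4a2, Col4a1 and the 5 nearest measured genes on either side, in chromosome order with spacing not to scale; dashed lines mark 2-fold. The collagen IV pair stands at 1.73 and 2.41, and the neighbours lie between -0.39 and 0.60.

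The laminin chains stood apart from collagen IV. Of the 4 laminin genes measured, Lamb1 alone had a log2 ratio above 0, and Lamb2, Lama5 and Lamc1 were below 0, each by less than 2-fold. Those directions hold relative to the median gene: with the arrays scaled to the hybridisation spikes Lamc1 turned to 0.06, Lama5 moved to -0.03 and Lamb2 to -0.39, while Lamb1 moved to 0.98. Scaling to the poly-A spikes moved the median of all measured genes to -0.21. The hybridisation spikes read lower with the Ndrg-1 sample in 18 of 18 probe sets (median log2 ratio -0.54), and the poly-A spikes read higher in 23 of 24 (median 0.22). Their part in these ratios was not tested.

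The beta chains had log2 ratios of opposite sign, neither of them past 2-fold. Lamb1, the beta chain of most laminins in embryonic and many adult tissues, read 798 in the Ndrg-1 clone and 590 in the vector clone (1.35-fold higher, log2 ratio 0.43). Lamb2, the beta chain found in basement membranes of kidney glomeruli, muscle and nerve, read 435 and 827 (1.91-fold lower, log2 ratio -0.93). Lamb2 had the 169th lowest log2 ratio of the measured genes, and Lamb1 ranked 899th from the highest. Both lay in the brightest tercile of probe sets, where 2 SD of the disagreement were 0.27, but Lamb1 lay within the 0.46 of all probe sets together. With scaling to the poly-A spikes Lamb1 was at 0.22, within either. The gap between them was 1.36 on the log2 scale, against 0.65 for 2 SD of a difference between probe sets. A single scale factor cancels in this gap, and both genes lay above every floor used, so most alternative settings could not change it. Those that could gave 1.36 (quantile normalization), 1.37 (lowess trend removed) and 1.33 (pseudocount of 16). Each of these genes rests on 1 probe set.

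Lamc1, the gamma chain shared by most laminins, read 795 in the Ndrg-1 clone and 1109 in the vector clone on its brighter probe set (1.40-fold lower, log2 ratio -0.48). Its second probe set read 277 and 373 (1.35-fold lower, -0.43), and the ratios of these probe sets lay 0.05 apart. Lama5, the alpha chain of the laminins typical of adult epithelia, read 1048 and 1559 (1.49-fold lower, -0.58). Its other probe sets lay under the floor in each clone, at 30.9 and 29.0 for the brighter and 5.54 and 9.06 for the dimmer, and gave no ratio. Lama5 and Lamc1, the alpha and gamma partners of either beta chain, differed from each other by 0.09 and from Lamb1 by 1.01 and 0.92. The log2 ratio of Lamb2 minus that of Lamc1 was -0.45, within the 0.65 for 2 SD of a difference between probe sets.

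Lama4, the alpha chain of vessel wall and mesenchymal laminins, was not measured. Its probe sets read 9.14 in the Ndrg-1 clone and 11.7 in the vector clone, and 11.0 and 8.23. All these signals lie under the floor, and the probe sets differ in opposite directions there.

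The linker components were dim, and none reached 2-fold. Hspg2 (perlecan) read 60.1 in the Ndrg-1 clone and 91.4 in the vector clone (1.52-fold lower, log2 ratio -0.61). Nid1 read 52.1 and 68.7 on its brighter probe set (1.32-fold lower, -0.41), and its second probe set, at 1.83 and 4.07, was under the floor. Nid2 read 25.9 in the Ndrg-1 clone, under the floor, and 38.8 in the vector clone, so it was at least 1.25-fold lower (-0.33 or lower). In the dimmest tercile, to which Hspg2 and the brighter Nid1 probe set belong, 2 SD of the disagreement were 0.59. Nid1 lay within it and Hspg2 just outside it. Nid2 has only a bound, so it cannot be placed against that limit (-0.588 with no floor applied). With scaling to the hybridisation spikes Nid1 turned to 0.14, and Hspg2 moved to -0.06.

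G and C made up between 55.0% (Lama4) and 75% (Col4a1) of the members' promoter windows, with Col4a2 at 73.7%. The median over all windows in the table was 51.7%. The RefSeq table held a window (250 bases before to 50 after the start, GRCr8) for 8 of the 10 genes, all but Lamb2 and Nid2. GGGCGG, searched on both strands, occurred 2 times in the windows of Col4a1, Col4a2, Lamb1 and Nid1, 4 times for Lama5, 5 times for Lamc1 and 6 times for Hspg2. It occurred 0 times for Lama4, where 33.1% of all windows hold it at least once. CCAAT occurred 2 times for Col4a1 and 1 time for Col4a2 and for Nid1, and 0 times in the other windows (37.5% of all windows). The windows of Col4a1 and Col4a2 overlap, so some of their matches are the same bases. TATAAA occurred 1 time for Lama4 and 0 times for the other 7 (14.2% of all windows).

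Among other basement membrane genes, the largest differences were lower signals in the Ndrg-1 clone. Of 22 such genes on the array 12 were measured, 0 of them 2-fold higher and 2 of them 2-fold lower. Of all measured genes 1.62% were 2-fold higher and 1.50% lower. The number past 2-fold was 0 with scaling to the hybridisation spikes, 5 with the poly-A spikes and 1 with the floor at the 75th percentile. With 7 of the 12 below 0, against 49.6% of all measured genes, the median log2 ratio was -0.43. That median turned to 0.0271 under a floor at the 25th percentile. Tinagl1, a secreted protein that binds laminin, read 300.3 in the Ndrg-1 clone and 866 in the vector clone (2.89-fold lower). Col15a1, a collagen that attaches basement membranes to the matrix beneath, was at least 2.04-fold lower, at 8.21, under the floor, against 63.0. Agrn, a heparan sulphate proteoglycan like perlecan, had a log2 ratio of -0.84. Further laminin alpha chains, Lama3 (-0.80) and Lama2 (-0.79), were at similar values. The other measured laminin chains of this list were Lamc3 (0.07) and Lamb3, under the floor in the Ndrg-1 clone (-0.15 or lower). Highest was Pxdn, the peroxidase that forms the sulfilimine cross-links of collagen IV, at 0.35, but its second probe set was at -0.34. Sparc, a collagen-binding matricellular protein, read 950 and 902 (0.07). Of the other collagen IV chain genes, Col4a4, Col4a5 and Col4a6 lay under the floor in each clone, and Col4a3 was not among the genes on the array.

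In the list for collagen modification and secretion 19 of 24 genes were measured. Of these 1 was 2-fold higher (1.62% of all measured genes) and 0 were 2-fold lower (1.50%). With 8 above 0 and 11 below (49.6% of all measured genes), the median was -0.10. Plod2, a lysyl hydroxylase, read 1509 in the Ndrg-1 clone and 724 in the vector clone (2.08-fold higher). P4ha1 and P4ha2, alpha subunits of prolyl 4-hydroxylase, were at 0.71 and 0.45, the latter with a second probe set at 0.60. Their partner subunit P4hb was at -0.15, and the lysyl hydroxylases Plod1 and Plod3 were at -0.26 and -0.34. Serpinh1, the collagen chaperone HSP47, was at 0.16. Lowest of the genes above the floor in both arrays was Loxl3, a lysyl oxidase-like enzyme, at -0.68. P4ha3, another prolyl 4-hydroxylase subunit, read 4.01 in the Ndrg-1 clone, under the floor, and 33.3 in the vector clone, which gives a bound of -0.10 or lower. The number past 2-fold was 3 with the floor at the 25th percentile, 2 with the pseudocount of 16 or the hybridisation spikes and 0 with the poly-A spikes, and the median turned to 0.48 with the hybridisation spikes.

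Of 17 receptors for laminin and collagen on the array 16 were measured, and 0 reached 2-fold with the floor at the median. Few of all measured genes did (1.62% higher and 1.50% lower). In 4 of the 16 a signal lay under the floor in 1 clone, so the ratio is a bound. These were the integrin chains Itgb4 (14.9 in the Ndrg-1 clone and 46.4 in the vector clone), Itga1 (17.9 and 42.4) and Itgb3 (38.7 and 15.9) and the syndecan Sdc3 (32.1 and 13.4). With the floor at the 25th percentile 4 receptors passed 2-fold, and 1 did with the pseudocount of 16 and with scaling to the poly-A spikes. Of the 16, 11 were below 0, against 49.6% of all measured genes, with a median of -0.16. Scaled to the hybridisation spikes, that median became 0.35. Among receptors above the floor in both arrays, the lowest was Itga7, a laminin-binding integrin chain, at -0.97 (68.0 in the Ndrg-1 clone and 133 in the vector clone), with a second probe set at -0.52. Itgb1, the beta chain of most laminin and collagen integrins, read 2149 and 2372 (-0.15). Dag1, dystroglycan, was at -0.37, and the highest of those above the floor in both arrays was the glypican gene Gpc1 at 0.44.

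Of 22 proteases and inhibitors of matrix breakdown on the array 14 were measured, with a median of -0.16. In each direction 1 was past 2-fold, where 1.62% of all measured genes were higher and 1.50% lower. The median of the 14 moved with the scale. Scaled to the hybridisation spikes, that median became 0.39. In all, 4 passed 2-fold with the floor at the 25th percentile, 0 with the floor at the 75th percentile, and 1 with the pseudocount of 16 or either spike scaling. The protease Adamts4 was at least 2.09-fold higher with the vector clone at the floor, and the inhibitor Timp4 was 2.39-fold lower. Mmp2 and Mmp9, the gelatinases known to cut collagen IV, lay under the floor in each clone (22.7 and 26.1 for Mmp2, 1.19 and 1.20 for Mmp9).

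Of 21 other collagen chains on the array 15 were measured, with 1 past 2-fold in each direction (1.62% of all measured genes higher, 1.50% lower). Below 0 were 11 of them, against 49.6% of all measured genes, and the median of -0.36 turned to 0.17 with the hybridisation spikes. With the floor at the 75th percentile, with scaling to the poly-A spikes or with the median over probe sets, 1 gene in all passed 2-fold. Col1a1 of fibrillar collagen I was 2.16-fold higher (167 against 76.9; second probe set 0.86), and its partner chain Col1a2 was at 0.09. Col3a1 of fibrillar collagen III was 2.93-fold lower. None of the 15 reached the ratio of Col4a1 or Col4a2.

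**Figure D4:**
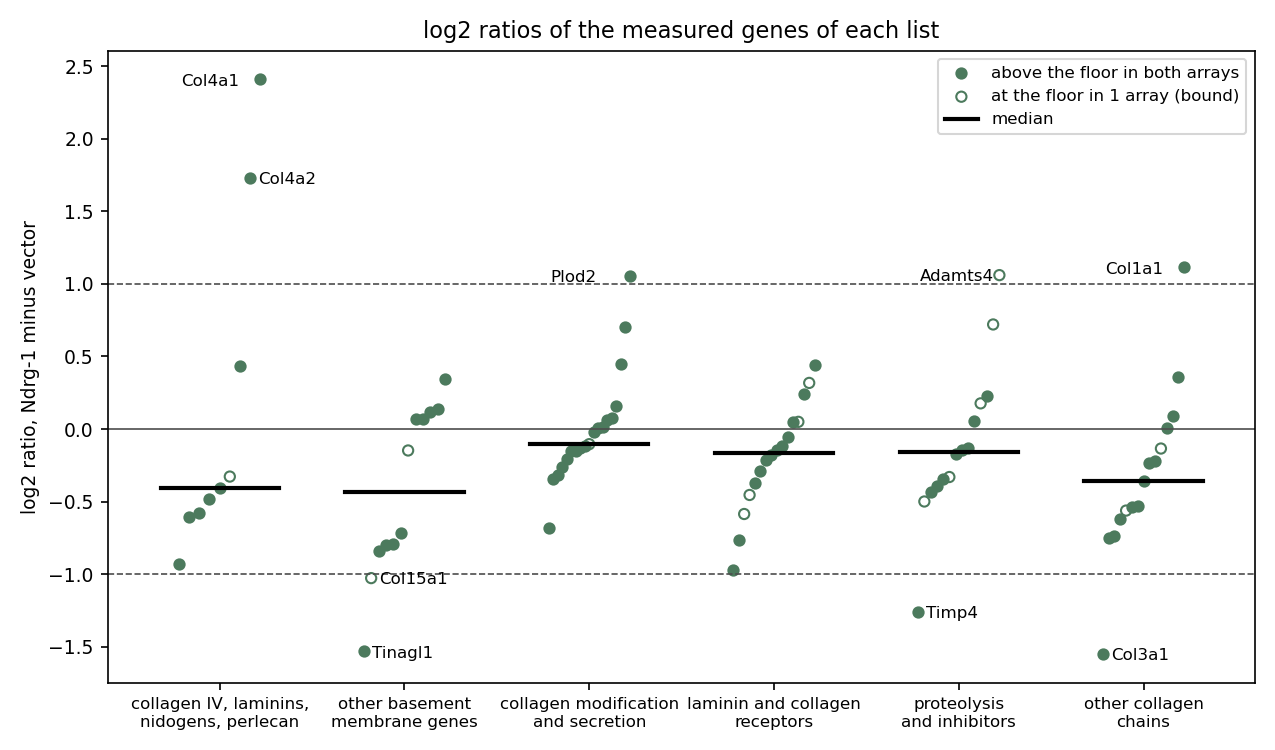
Points are the log2 ratios (Ndrg-1 minus vector) of measured genes in the basement membrane set and 5 related lists; open circles are bounds from genes at the floor in 1 array, black bars are list medians and dashed lines mark 2-fold. Medians run from -0.43 to -0.10, and Col4a1 and Col4a2 are the highest points.

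Markers of other cell types gave the following levels. Of 11 endothelial markers on the array 3 were measured, Eng (higher in the Ndrg-1 clone, by at least 2.94-fold), Egfl7 (log2 ratio 0.72) and Esam (0.56 or more), and the summed signal of the list was 332 in the Ndrg-1 clone and 209 in the vector clone. The defining endothelial genes Pecam1, Kdr, Tek, Tie1, Vwf and Emcn lay under the floor in each clone, none above 13.9. Of 12 epithelial markers 2 were measured (Krt7 and Krt8), and the summed signals were 306 and 383. Cdh1 and Epcam, which define epithelial cells, were under the floor, at 2.38 or less for Cdh1 and 8.61 or less for Epcam. Of 14 fibroblast and smooth muscle markers 6 were measured, 2 above 0 and 4 below, with summed signals of 6912 and 7679. Most of that sum was Vim (4344 in the Ndrg-1 clone and 5798 in the vector clone) and Thy1 (2141 and 1384). Those genes differed in opposite directions. The highest signal of any probe set was, like that of Vim, lower in the Ndrg-1 clone (4795 against 6446). The part of a trend at the brightest signals in the Vim value (log2 ratio -0.42) was not tested. Acta2 read 208 in each clone, while Dcn, Lum, Pdgfra and Pdgfrb lay under the floor in each clone. Of 11 leukocyte markers 4 were measured, 2 above 0 and 2 below, with summed signals of 541 and 532. Cd68 read 206 in the Ndrg-1 clone and 114 in the vector clone, Cd14 read 210 and 308, and Ptprc was under the floor. The part of the endothelial genes Eng, Egfl7 and Esam in the collagen IV difference was not tested.

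The order of the members held under most processing settings, though a single scale factor cannot change the order of genes above the floor. Col4a1 had the highest ratio in all 10 alternatives, from 1.43 or more with the floor at the 75th percentile to 2.95 with hybridisation spikes. Col4a2 was second in the 9 alternatives in which it was measured, from 1.46 to 2.28. Lamb1 stayed above 0 in all 10 (0.22 to 0.98), and Lamb2 below 0 in all 10 (-1.15 to -0.39). With scaling to the poly-A spikes Lamb2 passed 2-fold, at -1.15.

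**Figure D5:**
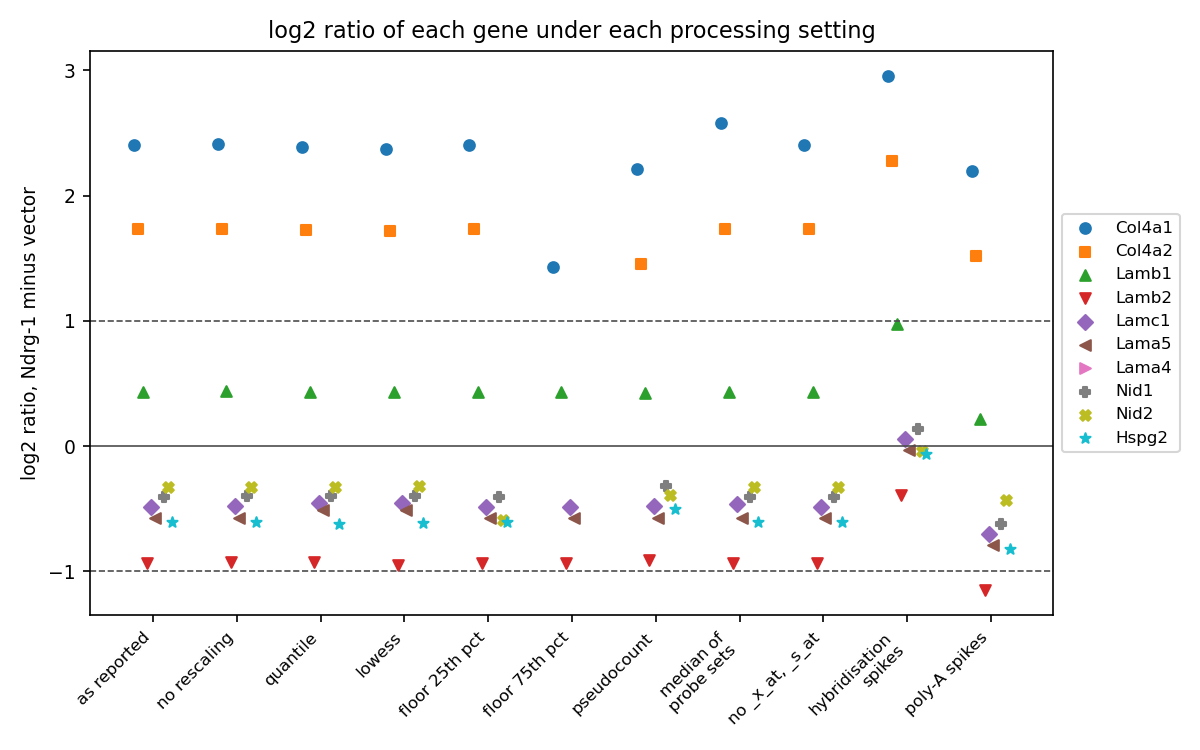
Log2 ratio (Ndrg-1 minus vector) of each basement membrane gene as reported and under 10 alternative settings; dashed lines mark 2-fold, and Col4a1 at the 75th percentile floor is a lower bound. Col4a1 and Col4a2 are above the upper line in every setting that measured them, and scaling to the hybridisation spikes moves all of them up.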

How the data were processed

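RNA from 2 AT6.1 clones was hybridised to 1 Affymetrix array each. The authors deposited 1 intensity per probe set and array, and the submitters' processing notes name GCOS 1.3. How probe sets were summarised is not given in the sources used here. Of 31042 probe sets that are not controls, 20826 carried 1 symbol in GEO's platform annotation, 436 several and 9780 none, and 20758 matched a RefSeq gene ID (GRCr8). The vector array was shifted by 0.0048 (log2), the floor of 31.0 applied, and log2 taken. A gene's brightest probe set, by mean log2 signal, stands for it. The SD between probe sets used 5336 probe sets of 2296 genes. With 1 array per group, no p-value was computed, and the number of arrays limits the precision. Members, gene lists and naming rule (all members; list members past 2-fold, the highest and lowest, and set partner genes; nearest genes by ratio) were chosen with earlier results of these data known. The procedure was tested on simulated data with noise set to the SD between probe sets. That simulation held no variation between clones or cultures, so it does not bear on them. Scripts ran in Python 3.11.15 (pandas 2.3.3, numpy 2.4.6; lowess from statsmodels 0.14.6).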

Additional observations from a re-analysis of the deposited data

How the results depend on the processing

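No paired analysis was possible because each group has 1 array. The 10 alternatives gave 226 values. Of these, 186 moved by less than the SD between probe sets (counts: by at most 1.5 times) and 40 moved more. Among values past 2-fold, 0 changed direction. Many of the values could hardly move, so the count of 186 is no measure of robustness. Leaving out the rescaling undid a shift of only 0.0048, and a changed floor keeps the ratios of genes above it. With no replicate arrays, signal near the floor and the choice of scale limit these results most.

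With the floor at the 75th percentile (172), Col4a2 was not measured, so 1 member was at least 2-fold higher, and Col4a1 was at 1.43 or more. Genes past 2-fold then numbered 1 for other basement membrane genes (median -0.0759), 0 for proteolysis and 1 for other collagen chains. With the floor at the 25th percentile (7.67), the median of other basement membrane genes was 0.0271, and 3 collagen modification genes, 4 receptors and 4 proteolysis genes passed 2-fold. With a pseudocount of 16 and no floor, Col4a2 was at 1.46, and 2 collagen modification genes, 1 receptor and 1 proteolysis gene passed. The median over probe sets left 1 other collagen chain past 2-fold.

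Scaled to the hybridisation spikes, 732 of all genes were higher and 43 lower, 5 members were above 0 with a median of 0.0599, Col4a1 was at 2.95 and Col4a2 at 2.28. List medians became -0.0639 (other basement membrane, 0 past 2-fold), 0.48 (collagen modification, 2 past), 0.35 (receptors), 0.39 (proteolysis, 1 past) and 0.17 (other collagens). Scaled to the poly-A spikes, 101 genes were higher and 240 lower, and Lamb2 was the 1 member at least 2-fold lower. Past 2-fold were then 5 other basement membrane genes, 0 collagen modification genes, 1 receptor, 1 proteolysis gene and 1 other collagen. Each spike scaling moved the log2 ratios of all genes above the floor in both arrays by the same amount. Why the spikes differed between the arrays was not tested.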
